A study of Mus musculus with 6 samples.

Results

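The 10 genes described here encode A20 (Tnfaip3) and proteins that build, read or remove ubiquitin chains beside it. They were taken by gene symbol and not by a cut on a measured value, though with earlier results of these data known. They are 10 of the 54532 genes in the deposited table. All 10 reached the minimum for testing, at least 1 TPM in at least 2 libraries, as did 12755 genes in all. TPM is a transcript level per unit of gene length that adds up to an equal sum in each library. The members were Tnfaip3, its binding partners Tnip1, Tnip2 and Tnip3 (encoding ABIN proteins), Tax1bp1 and Itch, the deubiquitinases Cyld and Otud7b, and the ubiquitin ligases Peli1 and Rnf19b.

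The study asked how metformin changes the acute response of macrophages to LPS, the outer membrane component of Gram-negative bacteria that is sensed by TLR4. Primary bone-marrow-derived macrophages (BMDMs) of C57BL/6 mice, differentiated in all groups with medium conditioned by L929 cells, formed the groups. Untreated cells received neither agent, LPS cells received LPS at 100 ng/ml during 2 h, and Met + LPS cells were first kept in 5 mM metformin during 6 h before an identical LPS exposure. Each of the 3 groups had 2 RNA-seq libraries, and no group received metformin alone, so that an effect of metformin on unstimulated cells cannot be told apart from one on the LPS response. The study's methods state that cells were seeded in duplicate, but not whether both libraries of a group came from separate mice. The p-values therefore measure only the spread between these libraries, which may be technical. In bulk RNA, fewer cells of a type and less RNA per cell cannot be told apart.

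When TLR4 or the TNF receptor is engaged, ubiquitin chains are assembled on adaptors and kinases and act as scaffolds for the kinases that release NF-κB. A20 is a deubiquitinase of the ovarian tumour (OTU) family that also carries zinc fingers binding or conjugating ubiquitin, and its own gene is a target of NF-κB, which closes a negative feedback loop. The ABIN proteins bind both A20 and ubiquitin chains, TAX1BP1 and the HECT ligase ITCH act with A20 in a ubiquitin-editing complex, and CYLD and OTUD7B (Cezanne) cut chains independently of A20. Peli1 and Rnf19b encode ligases, of the Pellino and RING-between-RING families, that add ubiquitin in innate immune signalling.

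The promoter sequences are shown because NF-κB sites are the textbook link between LPS and A20. RefSeq promoter windows (GRCm38.p6), read here over the 250 bases before each transcript start, were given for 8 of the 10 members in 10 windows. They were searched on both strands for the κB consensus, the letters bound by NF-κB dimers. A match was present in 4 of the 10 windows, one each of Tnfaip3, Tnip1, Tnip3 and Cyld, and in 3.9% of all 32851 windows of the same length. Capitals mark the κB matches in the sequences below, which read 5′ to 3′ on the strand of the gene and are cut to bases outside the exons that GENCODE gives for the gene.

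Tnfaip3, chr10:19015411-19015547, minus strand, within the span of the gene and outside its exons: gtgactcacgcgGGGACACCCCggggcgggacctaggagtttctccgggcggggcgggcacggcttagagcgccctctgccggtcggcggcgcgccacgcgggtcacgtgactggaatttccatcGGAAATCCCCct
Tnip1, chr11:54962941-54963190, minus strand, upstream of the gene: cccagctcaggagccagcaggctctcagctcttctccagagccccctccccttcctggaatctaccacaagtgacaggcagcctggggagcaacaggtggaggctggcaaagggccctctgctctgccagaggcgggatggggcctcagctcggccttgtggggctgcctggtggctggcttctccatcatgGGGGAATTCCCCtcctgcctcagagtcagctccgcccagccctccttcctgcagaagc
Tnip3, chr6:65590148-65590397, plus strand, within the span of the gene and outside its exons: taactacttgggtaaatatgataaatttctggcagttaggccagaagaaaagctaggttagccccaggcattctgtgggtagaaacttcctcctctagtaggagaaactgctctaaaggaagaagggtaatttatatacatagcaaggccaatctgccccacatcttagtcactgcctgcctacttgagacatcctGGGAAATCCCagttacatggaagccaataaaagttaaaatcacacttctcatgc
Cyld, chr8:88696778-88697027, plus strand, directly upstream of the gene: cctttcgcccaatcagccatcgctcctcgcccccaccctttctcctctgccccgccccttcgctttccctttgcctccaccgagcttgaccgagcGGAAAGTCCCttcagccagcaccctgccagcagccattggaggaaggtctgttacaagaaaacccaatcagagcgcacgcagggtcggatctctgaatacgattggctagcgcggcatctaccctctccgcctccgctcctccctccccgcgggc

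The Tnfaip3 window held 2 separate matches, GGGACACCCC from base -125 to -116 and GGAAATCCCC from base -12 to -3, counted back from the transcript start. Only 0.493% of all windows held matches at 2 or more positions, a count that includes overlapping matches. The Tnip1 window, with 3 overlapping positions, was also among them. The Tnip1 matches overlapped one another in the stretch GGGGAATTCCCC, those of Tnip3 lay at GGGAAATCCC (-54 to -45) on both strands, and the Cyld match was GGAAAGTCCC (-155 to -146). The windows of Peli1, Rnf19b, Tax1bp1 and Tnip2 and a second Tnfaip3 window held no match. TGACTCA, the letters of the AP-1 consensus, occurred from base -136 to -130 of the first Tnfaip3 window and in 4.46% of all windows. The letters TATAAA occurred in the windows of Tnfaip3, Tnip3 and Rnf19b and in 12.4% of all windows. These matches describe letters and were not tested as sites.

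All positions are in GRCm38, and all 10 members are protein-coding. Tnfaip3 (ENSMUSG00000019850) lies at chr10:19000910-19015657 on the minus strand, Tnip1 (ENSMUSG00000020400) at chr11:54910785-54962917 on the minus strand and Tnip2 (ENSMUSG00000059866) at chr5:34496087-34513991 on the minus strand. The other 7 are on plus strands, with Tnip3 (ENSMUSG00000044162) at chr6:65525313-65634040, Tax1bp1 (ENSMUSG00000004535) at chr6:52713729-52766780, and Itch (ENSMUSG00000027598) at chr2:155133509-155226855. Cyld (ENSMUSG00000036712) lies at chr8:88697028-88751945, Otud7b (ENSMUSG00000038495) at chr3:96104527-96161129, Peli1 (ENSMUSG00000020134) at chr11:21091291-21150323 and Rnf19b (ENSMUSG00000028793) at chr4:129058271-129085886. No member shared exon bases with another annotated gene except Tax1bp1, of which 160 exon bases overlapped the antisense model Gm43966, itself at 0 in 5 of the 6 libraries and at 0.684 TPM in the other.

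Between 25457016 and 30762754 reads per library were recovered from the TPM values, and each member rested on 703 to 78944 reads in a library. All 8 macrophage markers examined were present at 1 TPM or more, Adgre1, Cd68 and Lyz2 among them. Their summed level was 44621 to 46599 TPM in untreated cells, 37412 to 37903 TPM after LPS and 30877 to 30948 TPM in Met + LPS. Lyz2 made up most of that sum, at 33981 and 35844 TPM in untreated cells and 26974 and 26696 TPM after LPS, while Cd14 went the other way, from 911 and 998 TPM to 2639 and 2886 TPM, as did Adgre1, from 1510 and 1575 TPM to 1750 and 1684 TPM. Of 7 neutrophil markers, 5 reached 1 TPM, and the sum of all 7 was 29.9 to 32.6 TPM in untreated cells, 26.5 to 28.0 TPM after LPS and 43.4 to 45.5 TPM in Met + LPS, with Ly6g at 0 in all libraries but 1. The dendritic cell markers summed to at most 2.88 TPM in any library with 2 of 5 at 1 TPM, and the mast cell or basophil markers to at most 1.56 TPM with 1 of 4 at 1 TPM and Mcpt4 and Tpsb2 at 0. No T or NK cell, B cell or stromal marker reached 1 TPM, and Cd3g was at 0 throughout. The macrophage and neutrophil sums differed between the groups, and their part in the results below was not tested.

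LPS raised Tnfaip3 and 4 other members past the study's fold cut-off, a log2 fold change of 2 or more in either direction with an adjusted p-value under 0.01. Tax1bp1 rose by less, and Itch was lower in TPM. Tests were made with limma on log2(TPM + 1), a scale that understates the change of low genes, with Benjamini-Hochberg adjustment over the 12755 genes, and "rose" and "fell" are used below for an adjusted p-value under 0.01. With that threshold 6 of the 10 members were higher and 1 was lower after LPS, beside 16.2% and 60.1% of all tested genes. Past the fold cut-off as well, 5 members were higher and 0 lower, beside 3.72% and 2.37% of all tested genes. Of these 5, Tnfaip3, Tnip1 and Tnip3 had a κB match in the promoter window shown above and Peli1 and Rnf19b had none, whereas Cyld had a match and was not past the cut-off. The median log2 fold change was 1.21 over the members and -0.48 over all tested genes. Libraries rescaled by the median ratio over genes gave 9 members higher and 0 lower, beside 30.6% and 27.6% of all tested genes. The all-gene median was then -0.01, so that the direction of small LPS changes depended on the scaling. Whether the shift of -0.48 belongs to the cells or to the scaling was not tested.

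Tnfaip3 had the lowest transcript level of the 10 genes in untreated BMDMs, at 13.7 and 13.6 TPM. It was at 1435 and 1423 TPM after LPS and at 1202 and 1143 TPM in Met + LPS. The groups did not overlap, and both stimulated groups lay far above the untreated one. The means were 13.7 ± 0.114, 1429 ± 8.52 and 1173 ± 41.1 TPM (SD, n = 2 each). LPS raised the mean 105-fold, a log2 fold change of 6.61 (SE 0.03, adjusted p = 9.37e-10, limma), and 0.267% of the tested genes had a larger log2 fold change. After metformin the level fell by 18.0% from that of LPS alone, a log2 fold change of -0.29 (SE 0.03, adjusted p = 8.45e-04, limma), and remained 85.8-fold above untreated cells.

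**Figure D1:**
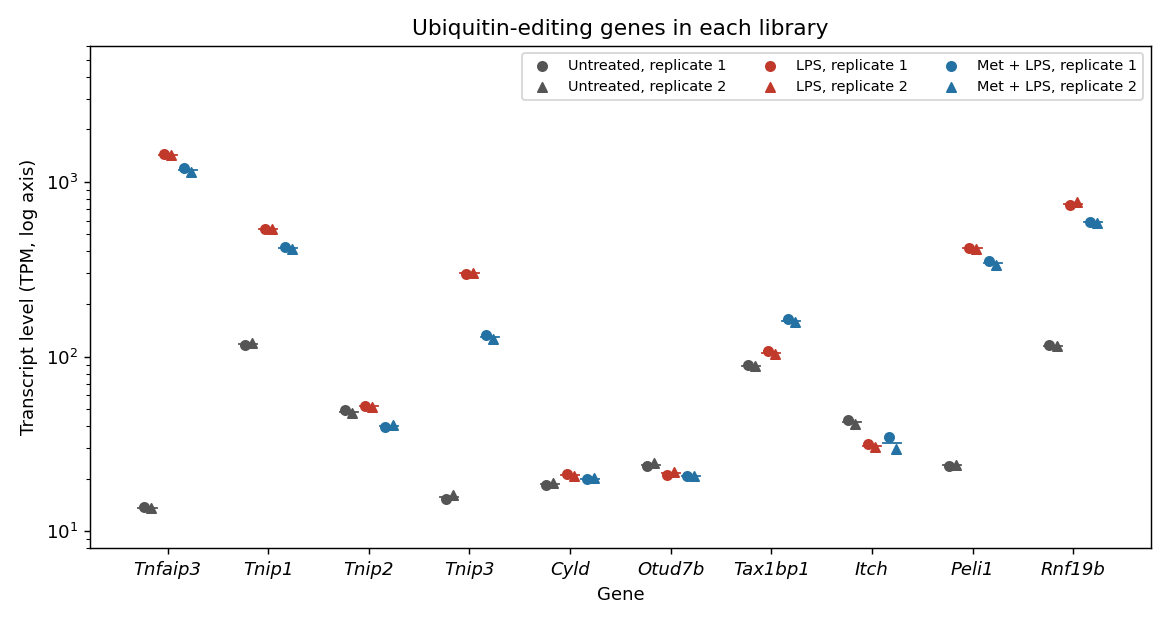
Transcript levels of the 10 genes in each of the 6 libraries, in TPM on a log axis, with circles and triangles for replicates 1 and 2 and a short line at the mean of each group. Tnfaip3 moves from the lowest level in untreated cells, 13.7 TPM, to the highest after LPS, 1429 TPM, and on this axis Tnip3 has the widest gap between LPS and Met + LPS.

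The 3 ABIN genes had different patterns. Tnip1, encoding the most widely studied A20-binding inhibitor of NF-κB, was at 116 and 119 TPM in untreated cells, 539 and 538 TPM after LPS, and 426 and 414 TPM in Met + LPS. Its LPS increase was 4.57-fold (log2 fold change 2.18, SE 0.03, adjusted p = 1.78e-08, limma), and in Met + LPS it fell by 22.0% (log2 fold change -0.36, SE 0.03, adjusted p = 2.36e-04). The libraries of the groups were separate at each step.

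Tnip3, encoding ABIN3, was at 15.3 and 16.2 TPM in untreated cells, close to Tnfaip3. It was at 299 and 301 TPM after LPS, but at 133 and 127 TPM in Met + LPS. The increase with LPS was 19.0-fold (log2 fold change 4.17, SE 0.04, adjusted p = 3.92e-09, limma). In Met + LPS it fell by 56.7%, a log2 fold change of -1.20 (95% interval -1.30 to -1.10, adjusted p = 1.01e-05), and only 0.925% of the tested genes had a lower value. Tnip3 was the single member past the study's cut-off of 0.7 for this comparison. Its level in Met + LPS was still 8.23-fold that of untreated cells.

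Tnip2, encoding ABIN2, was at 49.2 and 47.4 TPM in untreated cells and at 52.2 and 51.8 TPM after LPS. The LPS libraries were slightly above the untreated ones, and the difference did not pass the threshold (log2 fold change 0.10, SE 0.04, adjusted p = 0.0450, limma), although it did after median-ratio scaling (0.62, adjusted p = 1.73e-05). In Met + LPS it was at 39.7 and 40.8 TPM, the lowest of the 3 groups. It fell by 22.6% from LPS alone (log2 fold change -0.36, SE 0.04, adjusted p = 5.89e-04). Against untreated cells the log2 fold change was -0.26 (adjusted p = 8.86e-04, limma). After median-ratio scaling it was called in the opposite direction (0.27, adjusted p = 9.15e-04).

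The other partners of A20 were Tax1bp1 and Itch. Tax1bp1, encoding an adaptor that also serves as an autophagy receptor, was at 89.0 and 88.7 TPM in untreated cells, 107 and 103 TPM after LPS and 164 and 158 TPM in Met + LPS. Each group lay above the one before it. Tax1bp1 rose with LPS by 1.18-fold (log2 fold change 0.24, SE 0.04, adjusted p = 8.34e-04, limma) and was the single member that rose in Met + LPS over LPS, by 53.0% (log2 fold change 0.61, SE 0.04, adjusted p = 5.59e-05). It was thus 1.81-fold above untreated cells in Met + LPS.

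Itch, the HECT ligase, was at 43.1 and 41.3 TPM in untreated cells, 31.6 and 30.2 TPM after LPS, and 34.7 and 29.8 TPM in Met + LPS. Both stimulated groups lay below the untreated one and overlapped each other. In TPM it fell with LPS (log2 fold change -0.44, SE 0.07, adjusted p = 0.00134, limma), which is 0.04 above the median of all tested genes and turned to 0.07 (adjusted p = 0.405) after median-ratio scaling. The call was lost without untreated replicate 1 (adjusted p = 0.0186), without untreated replicate 2 (0.0116) or without LPS replicate 2 (0.0116). Between Met + LPS and LPS the log2 fold change was 0.06 (95% interval -0.12 to 0.24, adjusted p = 0.575).

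The 2 deubiquitinases that act apart from A20 had the narrowest ranges of the members. Cyld, encoding a deubiquitinase for K63-linked and linear chains, was at 18.5 and 18.9 TPM in untreated cells, 21.2 and 20.8 TPM after LPS and 19.9 and 20.1 TPM in Met + LPS. The groups did not overlap, but neither step passed the threshold, with log2 fold changes of 0.16 for LPS (adjusted p = 0.0161, limma) and -0.07 for Met + LPS vs. LPS (95% interval -0.18 to 0.04, adjusted p = 0.279). The LPS difference did pass after median-ratio scaling (0.66, adjusted p = 2.23e-05) and with limma voom on recovered reads (0.18, adjusted p = 0.00129).

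Otud7b, an OTU deubiquitinase like A20, was at 23.6 and 24.6 TPM in untreated cells, 21.1 and 21.9 TPM after LPS, and 20.8 and 20.7 TPM in Met + LPS. The values were lower after LPS, though not past the threshold (log2 fold change -0.16, SE 0.05, adjusted p = 0.0196, limma). After median-ratio scaling the sign turned and Otud7b was called higher (0.35, adjusted p = 7.31e-04). Met + LPS and LPS differed by -0.05 on the log2 scale (95% interval -0.16 to 0.07, adjusted p = 0.460).

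The ligases Peli1 and Rnf19b were both past the cut-off after LPS. Peli1, whose product ubiquitinates IRAK kinases and acts in TLR signalling, was at 23.8 and 23.9 TPM in untreated cells, 421 and 415 TPM after LPS and 350 and 336 TPM in Met + LPS. LPS raised it 17.5-fold (log2 fold change 4.07, SE 0.03, adjusted p = 2.17e-09, limma), and in Met + LPS it fell by 17.9% (log2 fold change -0.28, SE 0.03, adjusted p = 8.56e-04). The groups were fully separate, with Met + LPS nearer to LPS than to untreated cells.

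Rnf19b, encoding a RING-between-RING ligase known from natural killer cells and macrophages, was at 116 and 114 TPM in untreated cells, 740 and 763 TPM after LPS and 592 and 584 TPM in Met + LPS. It rose 6.51-fold with LPS (log2 fold change 2.69, SE 0.03, adjusted p = 7.79e-09, limma) and fell by 21.8% in Met + LPS (log2 fold change -0.35, SE 0.03, adjusted p = 2.35e-04). Its untreated level was 8.45 times that of Tnfaip3, and after LPS it was 0.526 times that of Tnfaip3.

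For Met + LPS vs. LPS the 10 genes thus divided into 6 that fell (Tnfaip3, Tnip1, Tnip2, Tnip3, Peli1 and Rnf19b), 1 that rose (Tax1bp1) and 3 that passed in neither direction (Cyld, Otud7b and Itch). Of all tested genes, 18% were lower and 14.5% higher by the same threshold. Past the fold cut-off of 0.7, 1 member was lower and 0 were higher, beside 4.09% and 4.19% of all tested genes. The median log2 fold change was -0.29 over the members and -0.03 over all tested genes. These calls were made with the same LPS libraries as the LPS vs. untreated calls, so the directions in the 2 comparisons are not independent.

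**Figure D2:**
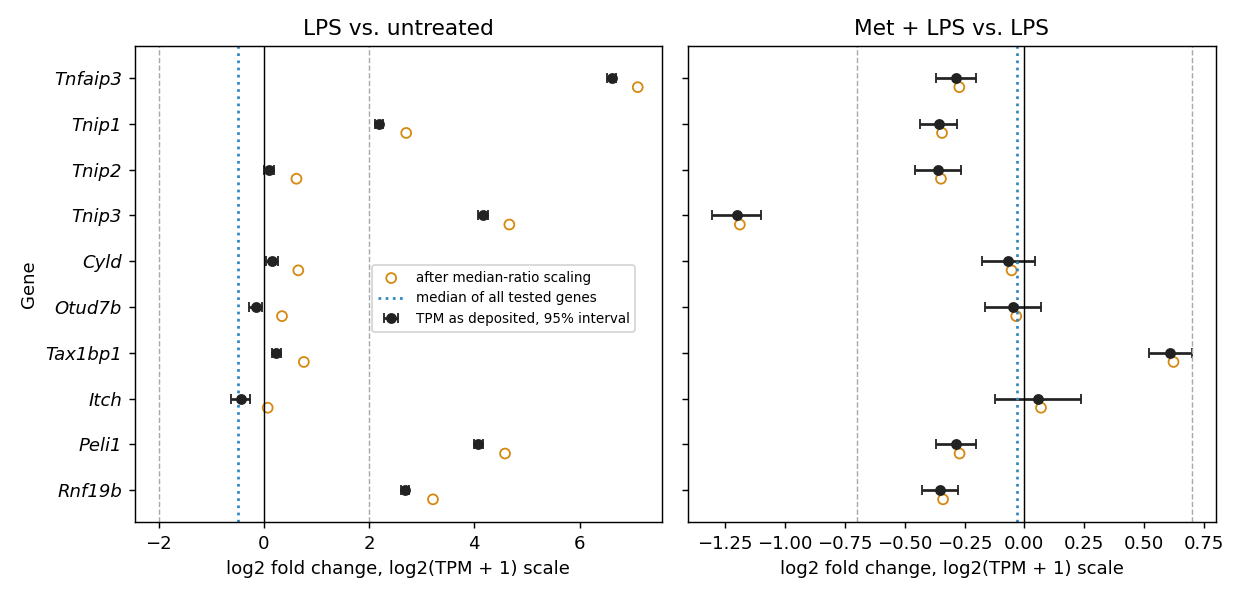
Log2 fold changes of the 10 genes on the log2(TPM + 1) scale for LPS vs. untreated and Met + LPS vs. LPS. Filled points with bars are the TPM as deposited with 95% intervals, open points are the values after median-ratio scaling, dashed lines mark the fold cut-offs of 2 and 0.7 and the dotted line the median of all tested genes. Rescaling moves every LPS value upward and turns the sign of Itch and Otud7b, whereas the Met + LPS values hardly move, with Tnip3 at -1.20 and Tax1bp1 at 0.61.

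Against untreated cells, Met + LPS had 6 members higher and 3 lower, beside 16.3% and 58.8% of all tested genes. The 6 were Tnfaip3 (log2 fold change 6.32), Peli1 (3.79), Tnip3 (2.96), Rnf19b (2.34), Tnip1 (1.83) and Tax1bp1 (0.85). The 3 were Itch (-0.38, adjusted p = 0.00265, limma), Tnip2 (-0.26) and Otud7b (-0.20, adjusted p = 0.00642). After median-ratio scaling 9 members were higher and 0 lower. Tnip2 (0.27, adjusted p = 9.15e-04, limma) and Otud7b (0.31, adjusted p = 0.00111) were then called higher, and Itch was not called (0.14, adjusted p = 0.124). Without untreated replicate 1 or without untreated replicate 2, 1 member was lower, since Itch and Otud7b lost their calls, and Otud7b also lost it without either Met + LPS library. Cyld was at 0.09 (95% interval -0.02 to 0.20, adjusted p = 0.107). The median was 1.34 over the members and -0.48 over all tested genes.

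The 5 genes past the LPS cut-off kept different parts of their increase after metformin. The part left is the difference between Met + LPS and untreated cells as a percentage of the difference between LPS and untreated cells, in mean TPM, and so uses the LPS libraries by which the 5 genes were taken. It was 81.9% for Tnfaip3, with a range of 79.8% to 83.9% when the group means were taken again without each library in turn. Peli1 was close to it at 81.0% (79.1% to 82.9%), and their ranges overlapped. Rnf19b kept 74.3% (72.9% to 75.7%) and Tnip1 71.8% (70.4% to 73.3%), and these ranges also overlapped. Tnip3 kept 40.1% (39.1% to 41.2%), and its range lay apart from those of the other 4. On the log2 scale the part left was larger for each, from 71.1% for Tnip3 to 95.7% for Tnfaip3. After median-ratio scaling the part left in TPM was 76.5% for Rnf19b, 75.0% for Tnip1 and 41.6% for Tnip3, each above its range given here. Tnfaip3 at 82.7% and Peli1 at 82.2% stayed within theirs. The differences between genes were not tested.

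**Figure D3:**
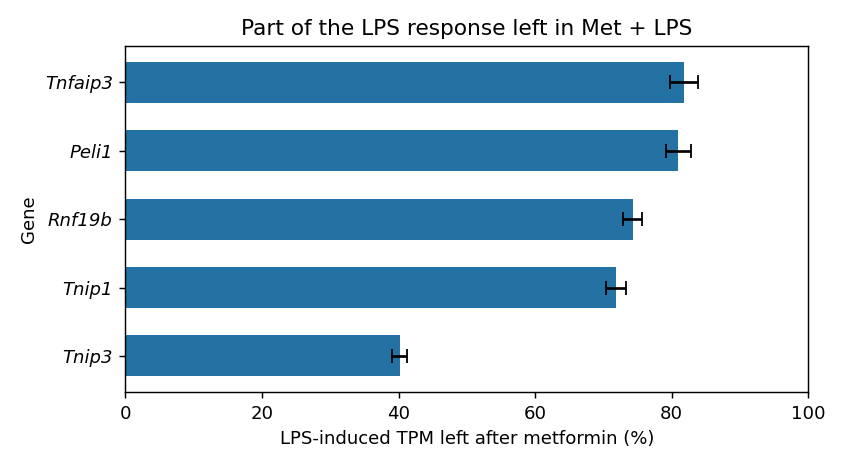
Part of the LPS-induced TPM left in Met + LPS, in percent, for the 5 genes past the LPS cut-off. Bars are the values from group means and error bars the range when the means are taken without each library in turn. Tnip3 stands at 40.1% beside 71.8% to 81.9% for the other 4.

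The order of the levels changed with LPS, and TPM, being per gene length, can be set side by side between genes. In untreated cells the mean TPM ran, from highest to lowest, Tnip1, Rnf19b, Tax1bp1, Tnip2, Itch, Otud7b, Peli1, Cyld, Tnip3 and Tnfaip3, where the libraries of Tnip1 and Rnf19b, and those of Otud7b and Peli1, overlapped. After LPS the order was Tnfaip3, Rnf19b, Tnip1, Peli1, Tnip3, Tax1bp1, Tnip2, Itch, Otud7b and Cyld, with an overlap of Otud7b and Cyld alone. In Met + LPS, Tax1bp1 at 161 TPM stood above Tnip3 at 130 TPM, the rest of the order was as after LPS, and no neighbours overlapped. The lengths behind these TPM are those of all exons of a gene together, and with the longest transcript instead, an alternative chosen after seeing the data, Tnfaip3 was still last in untreated cells and first after LPS and in Met + LPS. Other ranks moved: Tax1bp1 came first in untreated cells, and Peli1, Tnip3 and Tnip1 followed Rnf19b after LPS.

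The ratio of each partner to Tnfaip3 within a library does not depend on the scaling of that library. Every one of the 9 other members exceeded Tnfaip3 in untreated cells, from a mean ratio of 1.15 for Tnip3 to 8.63 for Tnip1. After LPS each was below it, from 0.526 for Rnf19b to 0.0147 for Cyld. The ratio of Tnip1 to Tnfaip3 was 0.376 and 0.378 after LPS, against 0.355 and 0.362 in Met + LPS. For Peli1 it was 0.293 and 0.292 after LPS and 0.292 and 0.294 in Met + LPS, so that the libraries of both groups overlapped. For Tnip3 it was 0.208 and 0.211 after LPS but 0.110 and 0.111 in Met + LPS. The ratio of Tax1bp1 moved the other way, from 0.0747 and 0.0724 after LPS to 0.136 and 0.138 in Met + LPS. With 2 libraries a group an exact permutation test of a single ratio cannot go below p = 0.333, and none was run.

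**Figure D4:**
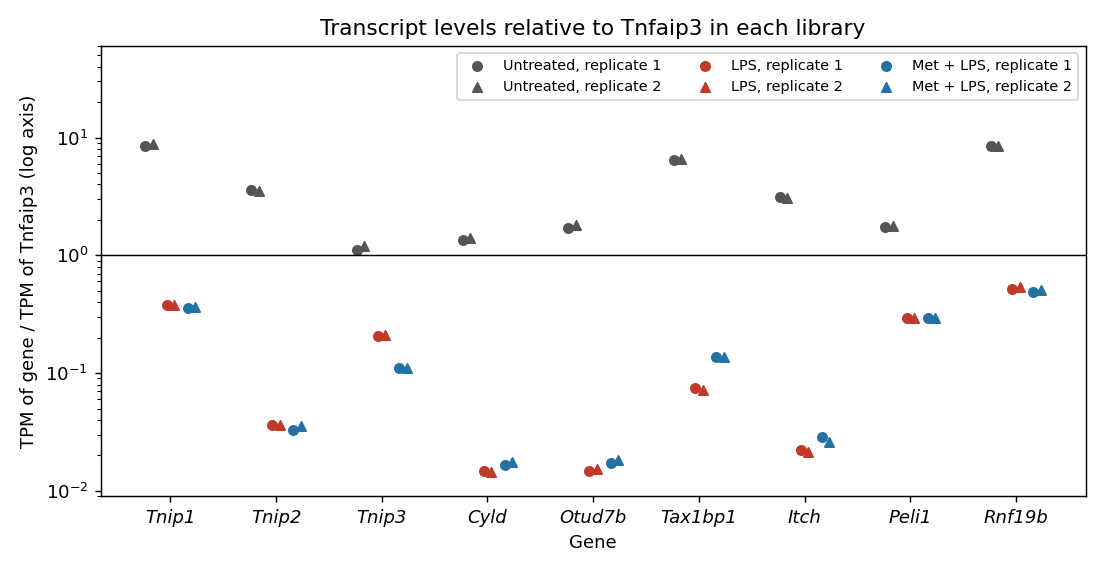
TPM of each of the other 9 genes divided by TPM of Tnfaip3 in the same library, on a log axis, with circles and triangles for replicates 1 and 2. All ratios lie above the line at 1 in untreated cells and below it in both stimulated groups, and between LPS and Met + LPS the ratio of Tnip3 moves down to 0.111 and that of Tax1bp1 up to 0.137.

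The other genes of the pathway were read from 10 lists with 102 genes, of which 95 were tested and some stand in more than 1 list. After LPS 48 rose and 35 fell, and 13 and 2 of them were past the fold cut-off, beside 16.2%, 60.1%, 3.72% and 2.37% of all tested genes. After median-ratio scaling the split was 61 higher and 14 lower. For Met + LPS vs. LPS 16 rose, 27 fell and 52 were not called, beside 14.5% higher and 18% lower of all tested genes. The medians over the lists were 0.15 and -0.05 for the 2 comparisons.

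The NF-κB subunits and inhibitors were the list with the largest share of genes that rose with LPS. All 11 rose with LPS and 9 were past the cut-off, with a median log2 fold change of 2.77. They included the inhibitors Nfkbia (99.4 ± 0.261 to 2699 ± 93.1 TPM, SD, n = 2), which like A20 returns the pathway to rest, and Nfkbie (18.5 to 411 TPM). Bcl3, not counted here as a plain inhibitor, went from 15.3 to 253 TPM. The subunit genes Nfkb1, Nfkb2, Rel and Relb had log2 fold changes of 2.55, 3.15, 2.77 and 2.55. In Met + LPS 6 of the 11 fell, 1 rose and 4 were not called. Bcl3 fell past the cut-off of 0.7, to 134 ± 0.655 TPM (log2 fold change -0.91, SE 0.06, adjusted p = 8.4e-05, limma). Nfkbia fell by 0.18 on the log2 scale (adjusted p = 0.00775), and Nfkbiz, an atypical inhibitor, was the one that rose (0.21, adjusted p = 0.00405).

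Among chain-building enzymes and their substrates the calls were mixed. Of 15 tested ligases and conjugating enzymes of TLR4 and TNF signalling, 12 rose and 1 fell with LPS (13 and 0 after median-ratio scaling). Birc3, a ligase of the TNF receptor complex, was the one past the cut-off (29.6 to 160 TPM, log2 fold change 2.40) and was at 100.4 TPM in Met + LPS (log2 fold change -0.67, adjusted p = 5.5e-05, limma). Of 20 ubiquitin-modified kinases and adaptors, 11 rose and 7 fell (14 and 3 after rescaling). Ripk2, the kinase of NOD receptors (17.7 to 427 TPM), and Malt1, a paracaspase that cleaves A20 (18.8 to 214 TPM), were past the cut-off upward, and Tab1, an activator of TAK1, downward (35.1 to 5.11 TPM). Of the 5 genes for assembly and removal of linear ubiquitin, 1 rose and 3 fell with LPS, beside 16.2% higher and 60.1% lower of all tested genes, and after median-ratio scaling 2 were higher and 0 lower. Rnf31, the catalytic ligase of that group and named after its values were seen, was the one that rose, from 27.9 to 92.7 TPM, and it was at 63.1 TPM in Met + LPS (log2 fold change -0.55, adjusted p = 2.01e-04).

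Relatives of the members by family were counted in the same way, and the counts of falls with LPS in most of these lists depended on the scaling, as 60.1% of all tested genes were lower in TPM and 27.6% after median-ratio scaling. Of 11 other OTU deubiquitinases 3 rose and 7 fell with LPS, none past the cut-off, and after rescaling 5 were higher and 3 lower. Otud1 was past the Met + LPS cut-off, from 61.2 ± 5.21 to 129 ± 7.2 TPM (log2 fold change 1.06, SE 0.12, adjusted p = 6.8e-04, limma). Of 12 other deubiquitinases of innate signalling 4 rose and 6 fell, against 5 higher and 2 lower after rescaling. Usp18, which removes the ubiquitin-like ISG15, was past both cut-offs, upward with LPS (19.9 to 255 TPM) and downward in Met + LPS (148 TPM, log2 fold change -0.78). Of 12 RING-between-RING ligases 5 rose and 6 fell (6 and 3 after rescaling), with Rnf144b at 50.9 TPM in untreated cells and 3.78 TPM after LPS. Of 7 NEDD4-like ligases and adaptors, the family of Itch, 1 rose and 3 fell in TPM, but 5 were higher and 0 lower after rescaling. Both relatives of Peli1 fell on either scaling, Peli2 from 12.7 to 5.54 TPM and Peli3 from 5.25 to 2.23 TPM, and both were named after their values were seen.

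The relatives of TAX1BP1 and other autophagy receptors were divided after LPS, with 2 of 4 higher and 2 lower (2 and 1 after rescaling). In Met + LPS 3 of the 4 rose and 0 fell, beside 14.5% higher and 18% lower of all tested genes. The one not called was Calcoco1, named after its values were seen, at 27.0 TPM after LPS and 22.8 TPM in Met + LPS (log2 fold change -0.24, adjusted p = 0.0629, limma). Optn, a ubiquitin-binding receptor related to the ABIN proteins, was past the cut-off, from 56.7 ± 4.15 to 99.3 ± 4.46 TPM (log2 fold change 0.80, SE 0.09, adjusted p = 5.0e-04, limma). Sqstm1, encoding the receptor p62 and named after its values were seen, was at 2817 TPM after LPS and 4195 TPM in Met + LPS (log2 fold change 0.57, adjusted p = 5.3e-05), beside 0.61 for Tax1bp1.

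**Figure D5:**
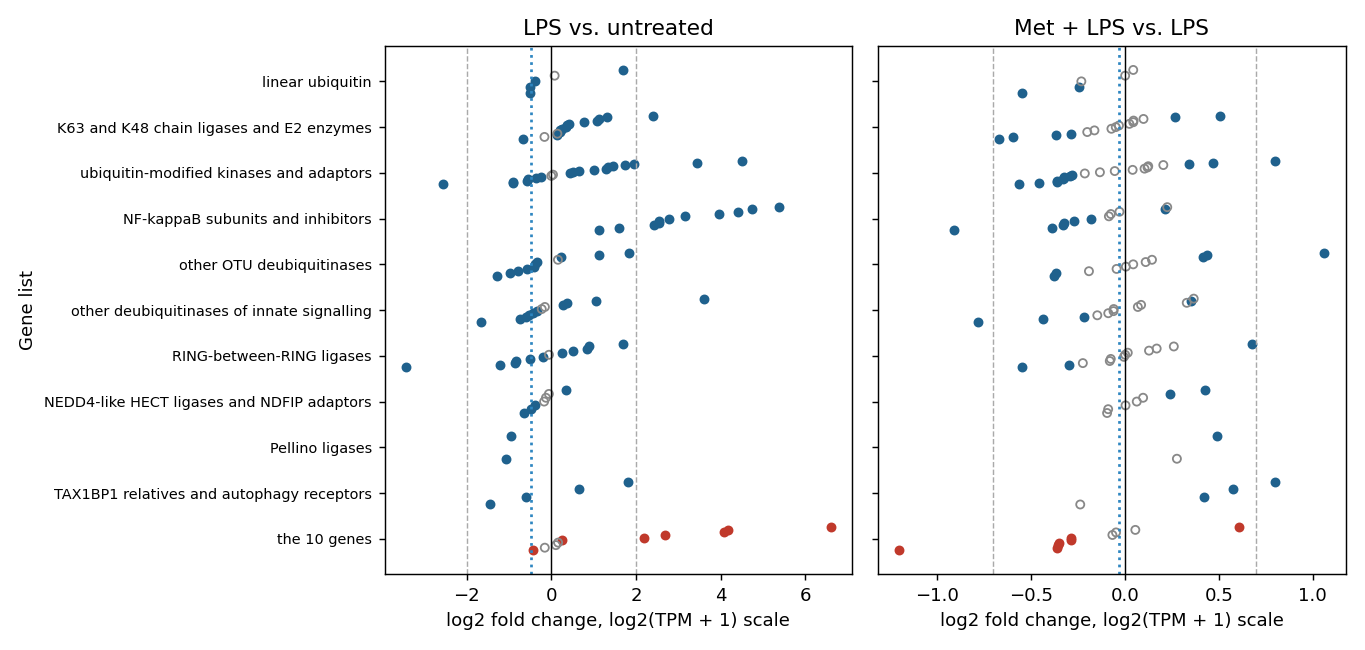
Log2 fold changes of the tested genes of each pathway list and of the 10 genes, one point per gene, for LPS vs. untreated and Met + LPS vs. LPS. Filled points passed an adjusted p-value of 0.01 and open points did not, dashed lines mark the fold cut-offs of 2 and 0.7 and the dotted line the median of all tested genes. All 11 NF-κB subunits and inhibitors lie right of 0 after LPS, and in Met + LPS Tnip3 at -1.20 is the lowest point shown.

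The tested genes most like Tnfaip3 over the 6 libraries, by the Euclidean distance of log2(TPM + 1) less the untreated mean, were Tnfsf4 (distance 0.24), Mx2 (0.25), Cd40 (0.59), Oasl1 (0.63) and Cmpk2 (0.64). Tnfsf4 and Cd40 encode a ligand and a receptor of the TNF superfamilies, and Mx2, Oasl1 and Cmpk2 are interferon-stimulated genes. Mean levels went from 5.56 to 703 and 400 TPM for Cd40 and from 18.8 to 1534 and 1315 TPM for Cmpk2 in untreated, LPS and Met + LPS libraries. With a pseudocount of 0.1 in place of 1, 2 of the 5 were kept, Cd40 and Oasl1, while Tnfsf4, at 0.181 TPM in untreated cells, moved to rank 135. Of the other members Peli1 was nearest at rank 113, followed by Tnip3 at 147, Rnf19b at 289 and Tnip1 at 413, and the remaining 5 were at rank 1627 or beyond. With a pseudocount of 0.1 the order of Peli1, Tnip3, Rnf19b and Tnip1 was the same, at ranks 194, 260, 483 and 668.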

How the data were processed

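Poly-A RNA of 6 libraries (untreated, LPS and Met + LPS, 2 each) was sequenced with single-end reads. Per the submitters' processing notes and the study's methods, the authors aligned reads to GRCm38 (annotation release 94) with STAR 2.6.1d, converted files with SAMtools 1.9, counted reads per gene with featureCounts (Subread 1.6.3), and deposited TPM for 54532 genes without pooling replicates. How counts became TPM, and whether counting used strand, is not given in the sources used here. The study tested read counts, and its fold cut-offs (2 and 0.7, log2) and adjusted p-value (0.01) were kept.

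The 12755 genes that reached 1 TPM in 2 or more libraries were tested with limma 3.58.1 (R 4.3.3; lmFit and eBayes with trend) on log2(TPM + 1). The 6 libraries shared a single fit, with no block, 3 residual degrees of freedom and Benjamini-Hochberg adjustment. Exon lengths came from GENCODE M21, matched for 54495 genes. TPM times exon length was a whole multiple of a library's step for 96.1% to 96.3% of values above 0 (tolerance 0.02), and the multiples were taken as reads, which carry no molecular identifiers. Depth limits cover counting error only. Promoter windows came from the RefSeq table of GRCm38.p6. Tables were made in Python 3.11.15 with pandas 2.3.3 and numpy 2.4.6 and plots with matplotlib 3.10.9. The fit was tested on simulated data, with a spread that was set and not estimated from these libraries. Of 12164 unchanged genes 3 were called in each comparison. At a simulated log2 fold change of 0.3, 1 of 40 genes was called for LPS vs. untreated and 0 of 40 for Met + LPS vs. LPS. At 0.7, 21 and 25 of 40 were called, so small true changes can go uncalled.

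The members and lists were chosen with earlier results of these data known. The genes named were the 10 members, genes of the lists past both thresholds in either comparison and the 5 genes nearest to Tnfaip3, and any other is marked as named after its values were seen. Alternatives were median-ratio scaling, another pseudocount (0.1), another minimum (5 TPM) or none, the compared groups only, the replicate number as a block, eBayes without trend, limma voom on recovered reads and leaving out each library. Replicates differed by more than sampling noise, with a chi-square per gene of 1.94 to 3.63. One further marker list is not reported here.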

Additional observations from a re-analysis of the deposited data

How the results depend on the processing

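Of the alternatives for the log2 fold changes of the 10 genes in the 3 comparisons, 338 gave the direction and call reported, 6 turned the direction, 4 gained a call and 12 lost one. Median-ratio scaling gave 0 members lower after LPS in place of 1, 14 lower genes in the pathway lists in place of 35, and 0 members lower in Met + LPS vs. untreated in place of 3. It turned Otud7b to 0.35 and Itch to 0.0745 for LPS vs. untreated, and Tnip2 to 0.27, Otud7b to 0.31 and Itch to 0.14 for Met + LPS vs. untreated; its size factors differ between untreated and stimulated libraries (1.29 against 0.887 to 0.898). Leaving out each library in turn gave 0 to 1 members lower after LPS, with 0 without untreated replicate 1, untreated replicate 2 or LPS replicate 2, and 1 to 2 members lower in Met + LPS vs. untreated, with 1 without untreated replicate 1 or 2. For Met + LPS vs. LPS, Itch lay between -0.0508 without Met + LPS replicate 1 and 0.162 without Met + LPS replicate 2, and the cause was not tested. In the lists leaving out a library gave 41 to 46 higher and 30 to 35 lower genes after LPS, and 11 to 12 higher and 18 to 20 lower in Met + LPS. Otud7b lost its call for Met + LPS vs. untreated without any 1 library of those groups (adjusted p = 0.0192 to 0.0479), in a fit of the compared groups only (0.0103) and with eBayes without trend (0.0115). Itch lost its call there with no filter (0.0124) and without untreated replicate 1 (0.0301) or 2 (0.0178).

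Libraries with the same replicate number did not deviate together (correlations of -0.004, 0.028 and 0.006 over 12755 genes). Counting noise can hide a shared deviation, so this does not settle whether the numbers pair the libraries, which were treated as unpaired. With the replicate block, 6 members were higher and 1 lower after LPS, and 1 higher and 6 lower in Met + LPS vs. LPS. In the lists the block gave 46 higher and 35 lower after LPS. Each member rested on at least 703 reads in a library, and 2 libraries per group leave 3 residual degrees of freedom.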
